A study of Mus musculus with 8 samples.

Results

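Ago2, Trappc9 and Chrac1 lie next to one another on mouse chromosome 15, in the region of the imprinted gene Peg13. They were taken here as every probe set annotated to 1 of the 3 gene symbols, which gave 7 probe sets of 3 genes among the 22511 probe sets and 9607 named genes of the array. Ago2 (gene ID 239528) had 3 probe sets, called Ago2 A (1455389_s_at), Ago2 B (1435636_at) and Ago2 C (1455294_at). Trappc9 (gene ID 76510) also had 3, called Trappc9 A (1452745_at), Trappc9 B (1432413_at) and Trappc9 C (1445611_at). Chrac1 (gene ID 93696) had 1 (1459859_x_at). Ago2 A and Ago2 B were designed on the same transcript entry and are not independent views of the gene. By the array's naming, a probe set ending in _s_at can match several transcripts and one ending in _x_at can bind unrelated ones.

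Imprinted genes are read mainly or only from the copy of 1 parent. In this region the long noncoding RNA Peg13 is read from the paternal copy, and in mouse brain Trappc9, Chrac1 and Ago2 are known to be read preferentially, but not only, from the maternal copy. AGO2 is the Argonaute protein that holds a microRNA and can cut the matching RNA. TRAPPC9 is a subunit of the TRAPP II complex of vesicle traffic and also binds kinases of the NF-kappaB pathway, and its loss in people causes intellectual disability with a small brain. CHRAC1 is a small histone-fold subunit of the chromatin accessibility complex, which slides nucleosomes.

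Expression was measured in mouse brain on 8 Affymetrix 430B arrays. All 8 samples were T9H/+, heterozygous for T9H, in which chromosomes 7 and 15 have exchanged segments, so no sample lacked the translocation. Maternal-15 samples carried a maternal duplication of proximal chromosome 15 together with a paternal one of proximal chromosome 7, and in paternal-15 samples the parents were the reverse. Each was sampled once as whole brain at 13.5 days post coitum (dpc), whole brain at 15.5 dpc, neonatal cortex and neonatal cerebellum. In animals of this kind each segment is normally present in its usual number of copies, both from 1 parent, so that a gene read only from the maternal copy is expected from 2 copies in maternal-15 and from none in paternal-15 brain. The labels do not give the breakpoints, so whether the 3 genes lie within the duplicated segment was not established. The effects of chromosomes 7 and 15 cannot be told apart in these samples, since each duplication of one came with the opposite duplication of the other. The labels do not say whether animals were pooled, and there was 1 array per duplication and context, so the error of each comparison comes from departures from an additive model.

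Values are MAS5 signal intensities, a linear brightness that is not comparable between probe sets. Array medians lay between 229.8 and 286 signal units, and a probe set was tested where it exceeded the median on at least 2 of the 8 arrays. This kept 13221 of 22511 probe sets and 6 of the 7 of the region, with Trappc9 C left out because it lay below the median on all 8 arrays. Snhg14, a gene of chromosome 7 read from the paternal copy, served as a check of the labels. Its probe set with the lowest adjusted p had signals of 371 to 869 in maternal-15 samples, which carry the paternal duplication of chromosome 7. Paternal-15 samples had 2.61 to 7.54 (limma adjusted p = 0.0194). The other Snhg14 probe sets were not called. They had 667 to 2372 against 0.262 to 33.9 (limma adjusted p = 0.0595) and 131 to 398 against 6.70 to 38.8 (0.162). A large difference could thus miss the threshold. Peg3, another paternally read gene of chromosome 7, had 2 probe sets too dim to be tested, with signals of 119 to 317 in maternal-15 against 26.4 to 109 in paternal-15 samples, and 32.8 to 139 against 5.70 to 60.7. Peg13 and Kcnk9, the other imprinted genes of the region, had 0 annotated probe sets on this array. Of 6 listed markers of cortical projection neurons 3 were tested (Neurod2, Bcl11b and Slc17a7), and all 3 were called higher in cortex, with summed signals of 16705 to 17030 in cortex and 4524 to 4608 in cerebellum. Of 6 listed cerebellar markers 2 were tested (Tfap2b and Zic1). Of these 1 was called lower in cortex and 1 was higher in cortex without being called. Their sums were 4010 to 6623 in cortex and 11076 to 12108 in cerebellum. Like all marker sums given here, these follow the brightest probe set most and can hide a marker that goes the other way.

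The first comparison asked whether the parental origin of the duplication changed the level of the 3 genes. No tested probe set of the region passed the test, and the genes did not share a direction. Differences are maternal-15 minus paternal-15 on the scale log2(signal + 58.5), fitted with limma over all tested probe sets with a term for context. Of the 6 tested probe sets 0 were called at an adjusted p below 0.05, where 0.00756% of all tested probe sets (1 of 13221) were called. That 1 was the Snhg14 probe set with the lowest adjusted p. At an unadjusted p below 0.05 the count was also 0 of 6, against 8.68% of all tested. Across the 6 the median difference was 0.071 and 4 were above 0, beside a median of 0.01 over all tested probe sets.

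Ago2 A had signals of 2925 in maternal-15 and 3861 in paternal-15 brain at 13.5 dpc, 2118 and 1961 at 15.5 dpc, 3690 and 2851 in cortex, and 2813 and 2551 in cerebellum. It was higher in maternal-15 in 3 of 4 contexts, and the ranges of the duplications overlapped. The fitted difference was 0.05 ± 0.16 (SE; 95% interval -0.33 to 0.44; adjusted p = 0.929).

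Ago2 B had signals of 2346 in maternal-15 and 1990 in paternal-15 brain at 13.5 dpc, 1433 and 1158 at 15.5 dpc, 1861 and 1842 in cortex, and 1693 and 1670 in cerebellum. It was higher in maternal-15 in 4 of 4 contexts, which held for 9.67% of all tested probe sets. The excess lay in the embryonic pairs, with ratios of 1.18 at 13.5 dpc and 1.24 at 15.5 dpc, while both neonatal ratios were 1.01. The fitted difference was 0.14 ± 0.13 (95% interval -0.17 to 0.45; adjusted p = 0.750), and the exact two-sided sign-flip p over the 4 pairs was 0.125, the smallest that 4 pairs allow.

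Ago2 C had signals of 982 in maternal-15 and 1175 in paternal-15 brain at 13.5 dpc, 466 and 350.2 at 15.5 dpc, 987 and 769 in cortex, and 509.8 and 552 in cerebellum. It was higher in maternal-15 in 2 of 4 contexts. The fitted difference was 0.09 ± 0.16 (95% interval -0.29 to 0.47; adjusted p = 0.879). The 3 probe sets of Ago2 thus differed from one another in which pairs were higher. At 13.5 dpc Ago2 B was higher in maternal-15 brain and Ago2 A and C were lower, although A and B come from the same transcript entry.

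Trappc9 A had signals of 2125 in maternal-15 and 2301 in paternal-15 brain at 13.5 dpc, 1977 and 2391 at 15.5 dpc, 2587 and 2338 in cortex, and 1958 and 2564 in cerebellum. It was lower in maternal-15 in 3 of 4 contexts and higher in cortex. The fitted difference was -0.15 ± 0.14 (95% interval -0.50 to 0.19; adjusted p = 0.747).

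Chrac1 had signals of 1997 in maternal-15 and 1455 in paternal-15 brain at 13.5 dpc, 1180.4 and 1547 at 15.5 dpc, 711 and 1029.8 in cortex, and 913 and 1139 in cerebellum. It was higher in maternal-15 at 13.5 dpc and lower in the other contexts. The fitted difference was -0.18 ± 0.19 (95% interval -0.63 to 0.26; adjusted p = 0.770). Leaving out 1 context pair at a time, it ran from -0.39 without the 13.5 dpc pair to -0.078 without the cortex pair. Of these 4 settings 0 were called (limma adjusted p 0.666 to 0.939).

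**Figure D1:**
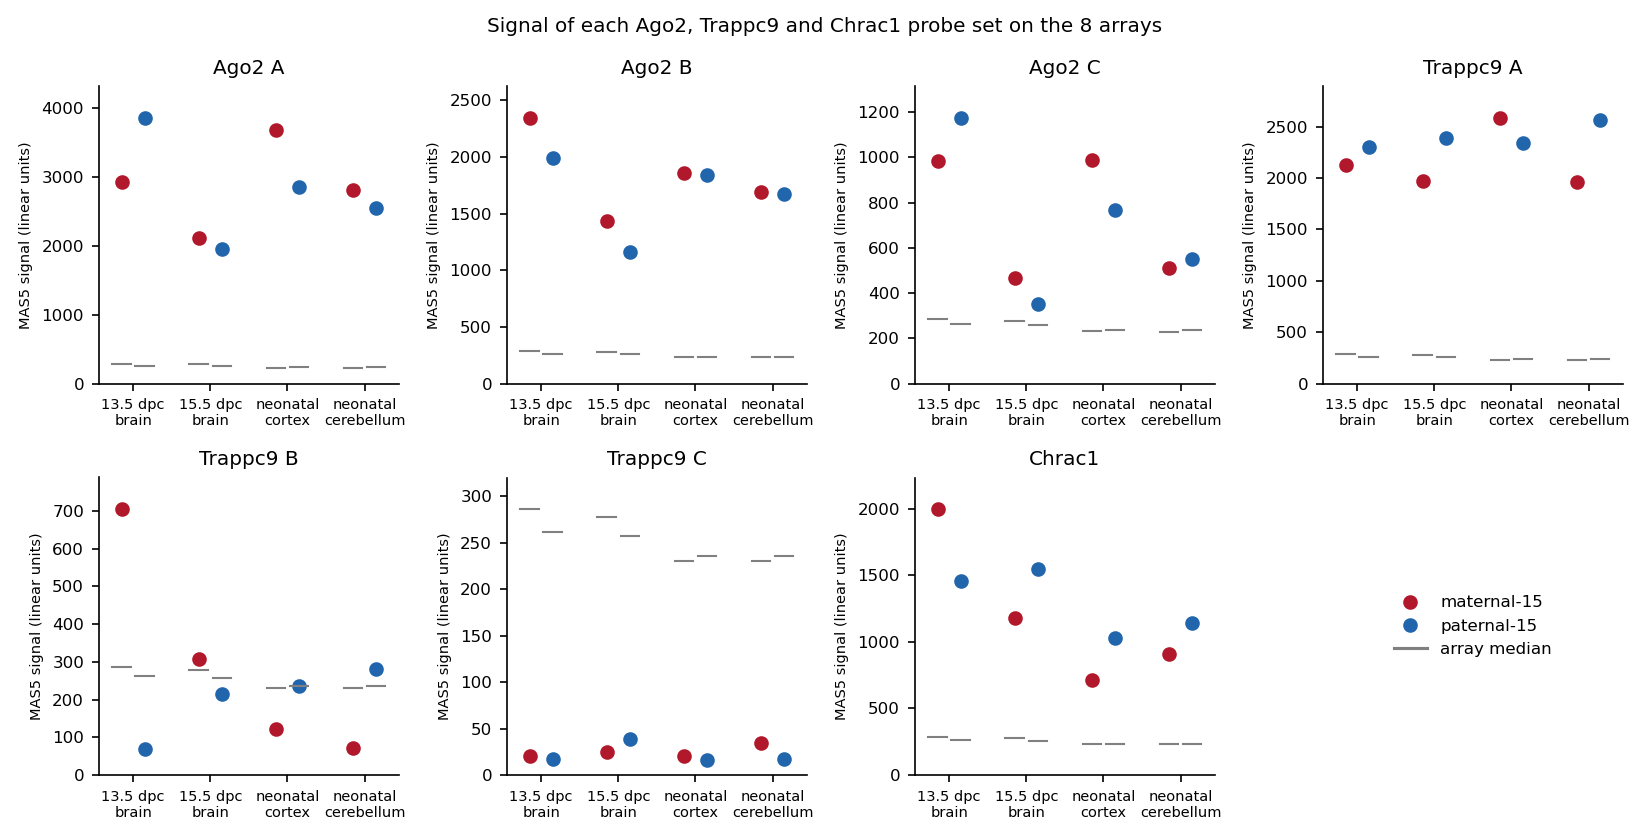
Signal intensity (linear axis from 0, each panel with its own scale) of the 7 probe sets in 13.5 dpc brain, 15.5 dpc brain, neonatal cortex and neonatal cerebellum, with 1 point per array, maternal-15 at the left of each pair and paternal-15 at the right. Grey lines are the array medians. Trappc9 B has a signal of 704 in maternal-15 brain at 13.5 dpc against 69.1 in its pair, and Trappc9 C stays at or below 38.7 on all arrays.

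Trappc9 B, another probe set of the same gene, did not follow Trappc9 A over the arrays. Its signals were 704 in maternal-15 and 69.1 in paternal-15 brain at 13.5 dpc, 307 and 214 at 15.5 dpc, 121 and 235 in cortex, and 71.2 and 282 in cerebellum. It exceeded the array median on 3 of 8 arrays, so most of these signals lay below the cut used for testing. Whether they exceeded background was not tested. The fitted difference over all contexts was 0.23 ± 0.59 (95% interval -1.18 to 1.64; adjusted p = 0.920), and Trappc9 A and B correlated at r = -0.08 over the 8 arrays.

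The pairs were then read 1 by 1. Of the 24 pair differences of tested probe sets 2 reached 2-fold on the log2(signal + 58.5) scale, and both belonged to Trappc9 B. At 13.5 dpc Trappc9 B differed by 2.58, where 6.66% of all tested probe sets differed at least 2-fold, and in cerebellum by -1.39, where 2.87% did. In both pairs the dimmer signal lay below its array's median and gives only a bound. Set against that median, the maternal-15 signal at 13.5 dpc was at least 2.69-fold higher, and the maternal-15 signal in cerebellum at least 1.23-fold lower, so 2-fold was not shown in cerebellum. The share of all tested probe sets was 7.92% at 15.5 dpc and 2.7% in cortex. The 20 pair differences of the tested probe sets other than Trappc9 B lay between -0.50 and 0.44, with 11 above 0. For 5 of the 6 probe sets the 95% interval lay within 2-fold in both directions. That count was not made over all tested probe sets, whose median standard error was 0.16. All 6 intervals held 0. A smaller bias of either sign is within these intervals, and with 1 array per duplication and context a p that misses the threshold does not show equal levels.

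**Figure D2:**
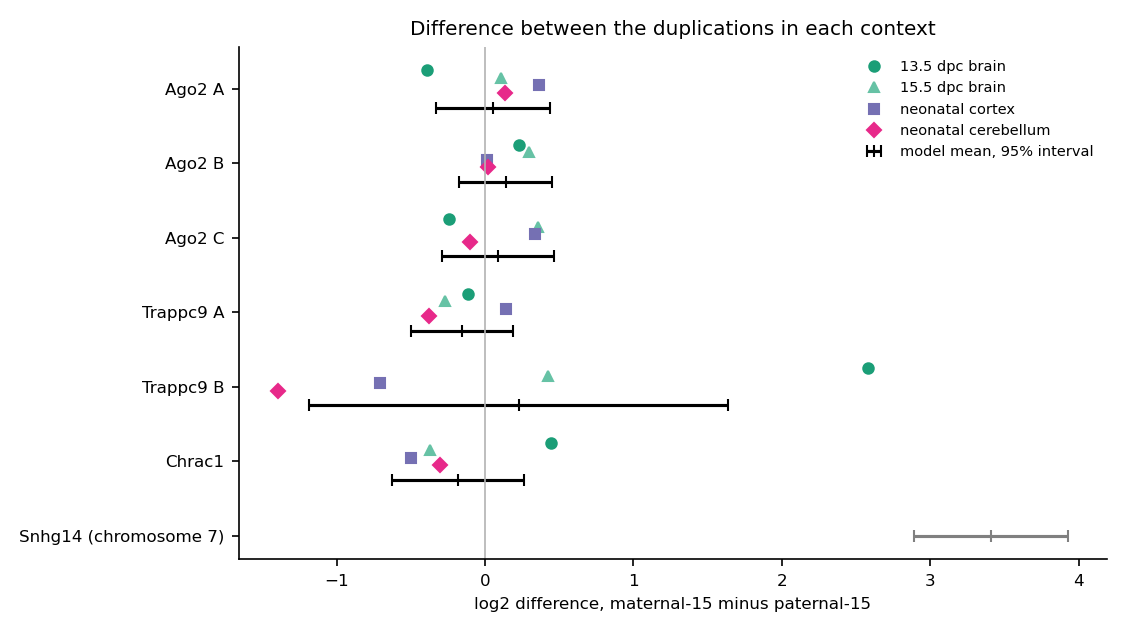
Difference of maternal-15 minus paternal-15, on the log2(signal + 58.5) scale, for the 6 tested probe sets: points are the 4 contexts, and the bar is the fitted difference with its 95% interval, with Snhg14 of chromosome 7 in grey below as the check of the labels. All 6 intervals cross 0, and only that of Trappc9 B, from -1.18 to 1.64, reaches beyond 2-fold.

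Whether the duplication acted differently in neonatal and embryonic brain was tested as neonatal minus embryonic difference. Embryonic samples were whole brain and neonatal ones cortex or cerebellum, so age and the part sampled cannot be told apart. Of the 6 probe sets 0 were called, and 0% of all tested were (0 of 13221 by limma). At an unadjusted p below 0.05 there was 1 of 6, Trappc9 B, against 9.14% of all tested (1209). Trappc9 B had a mean difference of -1.05 in the neonatal and 1.50 in the embryonic pairs, a change of -2.55 ± 0.72 (95% interval -4.37 to -0.73; unadjusted p = 0.0147; adjusted p = 0.499). It exceeded the array median only on the maternal-15 arrays at 13.5 and 15.5 dpc and the paternal-15 cerebellum array. It was thus tested only through arrays that raise this change, so its interval and p lend the change no support. Opposite signs in both neonatal and both embryonic pairs, as in Trappc9 B, were found in 15.3% of all tested probe sets. For Chrac1 the change was -0.44 ± 0.35 and for Ago2 A it was 0.39 ± 0.29, with adjusted p of 0.695 and 0.678.

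The contexts were compared next, over maternal-15 and paternal-15 arrays alike. Signals of all 3 Ago2 probe sets were lower at 15.5 dpc than at 13.5 dpc, those of Chrac1 were lower in neonatal than in embryonic brain, and Trappc9 A had a narrow range. Only 1 probe set passed in each of the first 2 comparisons, and 0 differed between cortex and cerebellum. In whole tissue, fewer cells of a type and less RNA per cell cannot be told apart. As above, age and the part of the brain sampled cannot be told apart between neonatal and embryonic arrays.

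Between 15.5 and 13.5 dpc, 1 of 6 probe sets was called, against 6.59% of all tested, and 3.07% of all tested were called lower at 15.5 dpc. Ago2 C fell to 408 ± 82.0 signal units at 15.5 dpc, against 1079 ± 136 at 13.5 dpc (SD, n = 2 arrays each), a difference of -1.29 ± 0.23 (0.409-fold; limma adjusted p = 0.0288). Ago2 A had 2040 ± 111 at 15.5 dpc and 3393 ± 662 at 13.5 dpc, a difference of -0.71 ± 0.23 (adjusted p = 0.125). Ago2 B had 1295 ± 194 at 15.5 dpc and 2168 ± 252 at 13.5 dpc, a difference of -0.72 ± 0.19 (adjusted p = 0.0702). For each of the 3 probe sets both 15.5 dpc arrays lay below both 13.5 dpc arrays, as they did in 24.1% of all tested probe sets. The call on Ago2 C was lost without any single array of the 8 (adjusted p 0.0647 to 0.104), on the 4 embryonic arrays alone (0.148) and with no filter on dim probe sets (0.0653). With an intensity trend in the variance all 3 Ago2 probe sets were called.

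Neither of the other genes passed between the embryonic ages. Chrac1 had 1363 ± 259 at 15.5 dpc and 1726 ± 383 at 13.5 dpc, a difference of -0.32 ± 0.26 (adjusted p = 0.529), and its ranges overlapped. Trappc9 A had 2184 ± 293 at 15.5 dpc and 2213 ± 124 at 13.5 dpc, a difference of -0.02 ± 0.20 (adjusted p = 0.965; 95% interval -0.51 to 0.46) that turned to 0.0026 with median centring. Trappc9 B had 261 ± 65.6 at 15.5 dpc and 387 ± 449 at 13.5 dpc, where its 2 arrays, at 704 and 69.1, lay on either side of both 15.5 dpc arrays.

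Cell markers moved in the same comparison. The 4 tested markers of maturing neurons (Syt1, Rbfox3, Camk2a and Map2, of 5 listed) were all called higher at 15.5 dpc, with summed signals of 28219 to 29083 at 15.5 dpc and 10571 to 15642 at 13.5 dpc. Markers of cortical projection neurons summed to 12155 to 13349 at 15.5 dpc and 5496 to 6772 at 13.5 dpc, with 1 of 3 called. Those of the choroid plexus, the tissue that makes cerebrospinal fluid, summed to 50653 to 58548 at 15.5 dpc and 24815 to 37443 at 13.5 dpc, with 1 of 3 called. Their part in the Ago2 difference was not tested.

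Between neonatal and embryonic brain, 1 of 6 probe sets was called, against 30.7% of all tested, and 16.4% of all tested were called lower in neonatal brain. Chrac1 had 948 ± 183 in neonatal brain and 1545 ± 339 in embryonic brain (SD, n = 4 arrays each). The difference was -0.67 ± 0.19 (0.630-fold, limma adjusted p = 0.0367). All 4 neonatal arrays, at 711 to 1139, lay below the 4 embryonic arrays, at 1180.4 to 1997, as they did in 16.5% of all tested probe sets. The median of all tested probe sets was itself -0.16 in this comparison. With each array centred on its median the difference of Chrac1 was -0.49 and the call was lost (adjusted p = 0.0875). It was also lost with no filter (0.0687), when the pseudocount was replaced by a floor of 1 (0.0509), and without any single array except the paternal-15 array at 13.5 dpc, over which the adjusted p ran up to 0.149.

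Ago2 and Trappc9 showed no called difference between neonatal and embryonic brain. Ago2 A had 2976 ± 494 in neonatal and 2716 ± 872 in embryonic brain, a difference of 0.17 ± 0.16 (adjusted p = 0.451) that turned to -0.033 with quantile normalization. The neonatal signals of all 3 Ago2 probe sets lay among the embryonic ones. Trappc9 A had 2362 ± 292 in neonatal and 2199 ± 184 in embryonic brain, a difference of 0.10 ± 0.14 (adjusted p = 0.625; 95% interval -0.25 to 0.44) that turned to -0.067 with quantile normalization. Trappc9 B had 177 ± 97.7 in neonatal and 324 ± 272 in embryonic brain, a difference of -0.51 ± 0.59. Without the paternal-15 array at 13.5 dpc it was -1.30 and called (adjusted p = 0.0409).

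Markers also separated neonatal from embryonic samples. The 4 tested markers of maturing neurons were called higher in neonatal brain, with sums of 41147 to 51728 in neonatal and 10571 to 29083 in embryonic brain. The 3 tested of 5 listed astrocyte markers (Slc1a3, Slc1a2 and Aqp4) were called higher, with sums of 10643 to 12459 in neonatal and 3908 to 7040 in embryonic brain. Top2a, the 1 tested of 4 listed proliferation genes, was called lower, with signals of 154 to 207 in neonatal and 160 to 487 in embryonic brain. Rfx4, the 1 tested of 6 listed neural progenitor markers, was called higher, with signals of 581 to 1514 in neonatal and 282 to 1064 in embryonic brain. Their part in the Chrac1 difference was not tested. Markers of oligodendrocytes, microglia, endothelium and red blood cells had 0 annotated probe sets on this array.

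Between cortex and cerebellum 0 of 6 probe sets were called, against 0.325% of all tested (limma, 43 of 13221), and 1 of 6 had an unadjusted p below 0.05, against 7.65% of all tested. That probe set was Ago2 C, with 878 ± 154 in cortex and 531 ± 29.9 in cerebellum (SD, n = 2 each), a difference of 0.66 ± 0.23 (adjusted p = 0.529). Ago2 A had 3270 ± 594 in cortex and 2682 ± 186 in cerebellum, and Ago2 B had 1852 ± 13.6 in cortex and 1681 ± 16.2 in cerebellum. For each Ago2 probe set both cortex arrays lay above both cerebellum arrays, a separation in either direction seen in 41% of all tested. Chrac1 had 870 ± 226 in cortex and 1026 ± 160 in cerebellum, and Trappc9 A had 2463 ± 176 in cortex and 2261 ± 429 in cerebellum, both with overlapping ranges.

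**Figure D3:**
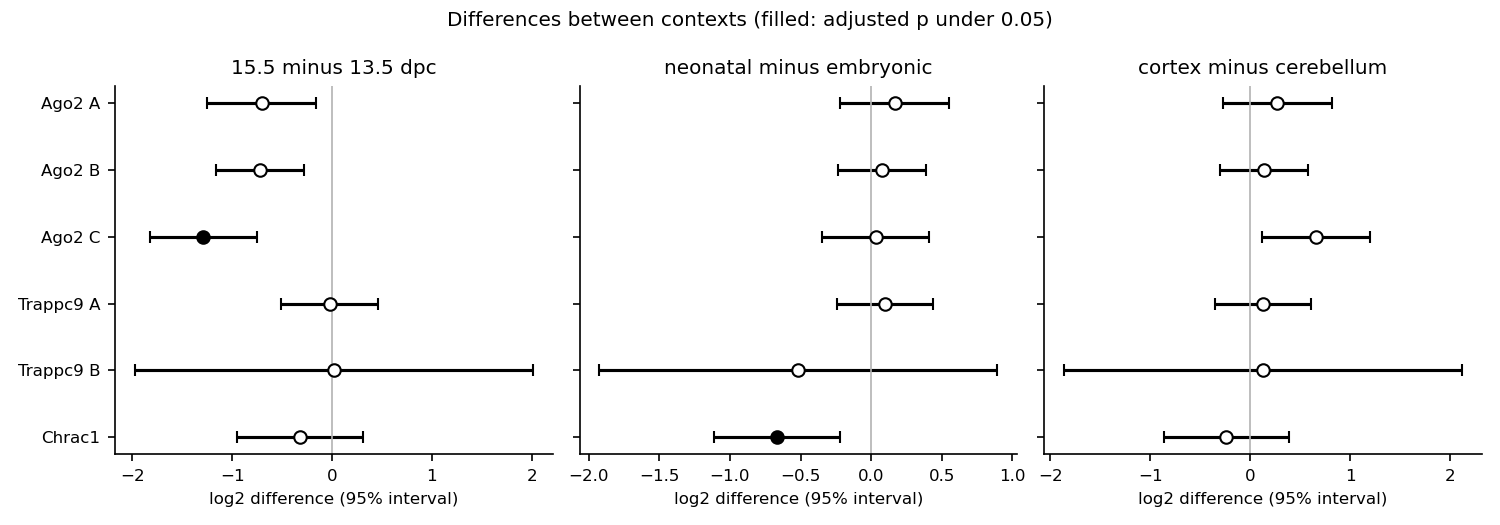
Differences between contexts (15.5 minus 13.5 dpc, neonatal minus embryonic, cortex minus cerebellum) on the log2(signal + 58.5) scale for the 6 tested probe sets, with 95% intervals; filled points passed the test. The filled points are Ago2 C between embryonic ages, at -1.29, and Chrac1 in neonatal against embryonic brain, at -0.67.

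The order of the context means differed between the genes. All 3 Ago2 probe sets ran from 13.5 dpc, the highest, through cortex and cerebellum to 15.5 dpc, the lowest. Chrac1 ran from 13.5 dpc through 15.5 dpc and cerebellum to cortex. Trappc9 A ran from cortex through cerebellum and 13.5 dpc to 15.5 dpc. In Ago2 A and Ago2 C the 13.5 dpc and cortex arrays overlapped, and in Ago2 B no contexts next to each other did. In Chrac1 the ranges at 13.5 and 15.5 dpc overlapped, as did those of cerebellum and cortex, and in Trappc9 A every context overlapped the next. The steps from 13.5 dpc to cortex and from cerebellum to 15.5 dpc were not tested on their own.

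Context held 79.7%, 88.7% and 93.0% of the variance of Ago2 A, B and C over the 8 arrays, and 75.6% of that of Chrac1. For Trappc9 A it held 22.6% and the duplication 29.6%. The highest Trappc9 A signal was 1.32 times the lowest, a log2 range of 0.39, and 1.97% of all tested probe sets had a smaller range. Among the 1294 probe sets within 0.5 log2 units of its level, 3.48% did. Trappc9 B, in contrast, left 87.5% of its variance to neither context nor duplication. Context has more levels than the duplication, so it is expected to hold more even of random variation. The shares of variance were not set beside those of all tested probe sets.

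Correlations were set out within and between the genes. Over the 8 arrays, which the pairs of probe sets share, Ago2 A correlated with Ago2 C at r = 0.92 and with Ago2 B at 0.78, and Ago2 B with Ago2 C at 0.89. Between the brightest probe sets of the genes r was 0.26 for Ago2 A with Trappc9 A, -0.27 for Ago2 A with Chrac1, and -0.22 for Trappc9 A with Chrac1. The largest between tested probe sets of different genes were 0.57 for Trappc9 B with Chrac1 and -0.43 for Ago2 A with Trappc9 B, and Trappc9 B lay mostly below the array median. Most like Ago2 A were the probe sets of Iffo2 (r = 0.93), Osbpl3 (0.91) and Flrt1 (0.91), and 4 of 9769 probe sets of other named genes exceeded 0.9. Most like Trappc9 A were Usp42 (0.92), Ctps2 (0.91) and Nr2f2 (0.91), with 3 of 9770 above 0.9. Most like Chrac1 were Aspm (0.98), Psenen (0.97) and 1700003F12Rik (0.96), with 112 of 9771 above 0.9. These are the highest of many correlations over 8 arrays, so their height comes in part from the choice. None of these 9 genes lies on chromosome 15, which held 273 of all 6812 tested genes.

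The 8 nearest tested genes on each side, in the RefSeq gene order, were set beside the 3 genes. Untested genes were passed over, so these neighbours were not adjacent. Counted in genes from the region, they lay at -51 (Kcnq3) to -5 (Col22a1) before it and 9 (Dennd3) to 78 (Zfp41) after it. By duplication 0 of the 16 neighbours were called and 8 were above 0. Their median difference was 0.006 and they ran from -0.33 for Zfat, a zinc-finger gene, to 0.41 for 4930573C08Rik, with a smallest adjusted p of 0.582. Over all 273 tested genes of chromosome 15 the median was 0.0069, 138 were above 0 and 0 were called. The Ago2, Trappc9 and Chrac1 differences lay inside the range of the neighbours.

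Between contexts these neighbours were more variable. In neonatal against embryonic brain 1 neighbour was called higher and 6 lower, with a median of -0.39, beside 35 higher and 58 lower of 273 tested genes of chromosome 15. Kcnq3, a potassium channel subunit of neurons, had 1771 ± 259 in neonatal and 121 ± 60.8 in embryonic brain, a difference of 3.40 ± 0.17 (adjusted p = 0.000565). Its embryonic signals were below the array median, and against that median it was at least 6.50-fold higher in neonatal brain. The 6 lower genes were 4930573C08Rik (-0.77), 4930504C09Rik (-0.76), Col22a1 (-0.64), a collagen gene, Phf20l1 (-0.59), Gpihbp1 (-0.57), which anchors lipoprotein lipase to capillaries, and Ly6k (-0.56). Between 15.5 and 13.5 dpc 0 of 16 neighbours were called, with a median of 0.00075 and a smallest adjusted p of 0.100, beside 10 higher and 11 lower of the 273 tested genes of chromosome 15.

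**Figure D4:**
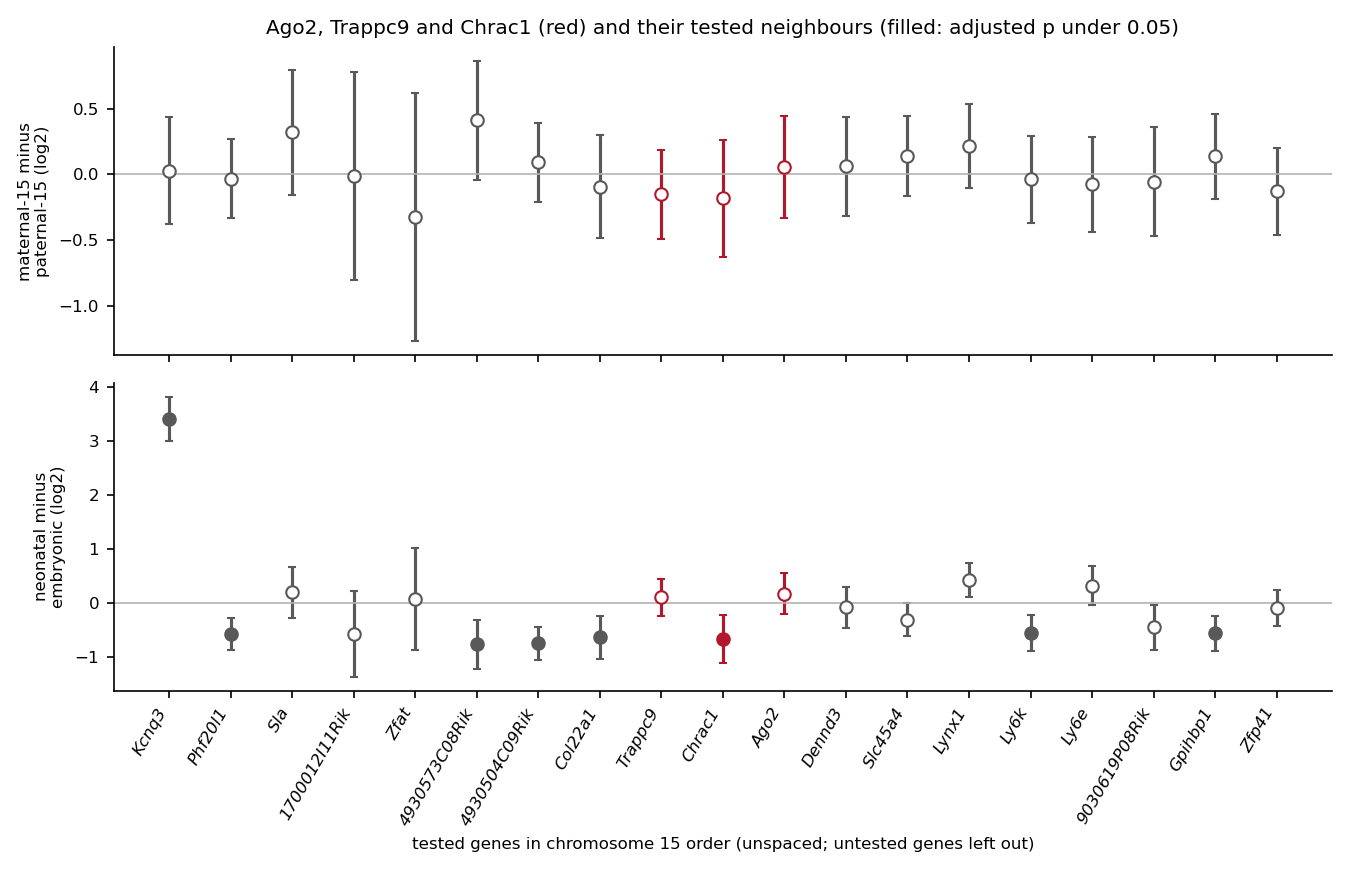
Differences of the 16 neighbouring genes and the members in gene order along chromosome 15, for the duplication (maternal-15 minus paternal-15) and for neonatal minus embryonic brain, on the log2(signal + 58.5) scale with 95% intervals; the 3 genes of the region are in red, filled points passed the test, and the horizontal axis is the order of tested genes, not distance. Duplication differences of neighbours stay between -0.33 and 0.41, while Kcnq3 stands at 3.40 in neonatal against embryonic brain.

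Genes that work with the 3 proteins were described from 4 lists. Of the 21 other genes listed for Argonaute and small RNA function 13 were on the array and 12 tested, of 13 other TRAPP subunits 7 and 7, of 9 NF-kappaB genes 3 and 2, and of 14 histone-fold and chromatin accessibility partners 6 and 4. By duplication 0 of these 25 tested genes were called, and medians of the lists ran from -0.24 to -0.01. Between 15.5 and 13.5 dpc 0 were called, with medians of -0.18, 0.08, -0.38 and -0.43 in the same order of lists, while 305 of all 6812 tested genes were called higher and 256 lower (6.59% of tested probe sets called). Between cortex and cerebellum 0 were called, against 0.325% of tested probe sets.

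In neonatal against embryonic brain 3 of the 25 were called, all lower, a smaller share than the 1097 higher and 1224 lower of all 6812 tested genes (30.7% of tested probe sets). Baz1a, which encodes the ACF1 subunit found with CHRAC1 in the chromatin accessibility complex, was lower in neonatal brain. Its signals were 525 ± 71.8 there and 1168 ± 246 in embryonic brain (SD, n = 4 each, difference -1.06 ± 0.14, limma adjusted p = 0.00282). Hsp90aa1, a chaperone used in loading Argonaute, had 305 ± 33.5 in neonatal and 528 ± 111 in embryonic brain (-0.67 ± 0.16; adjusted p = 0.0226). Trappc4, a core TRAPP subunit, had 4150 ± 278 in neonatal and 5789 ± 1285 in embryonic brain (-0.45 ± 0.12; adjusted p = 0.0342). The median of all tested probe sets was -0.16 in this comparison, and -0.066 among the brighter ones kept by a strict filter. How much of this shift each of these differences holds was not tested.

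The other Argonaute genes, named here after their values were seen, were not called between the embryonic ages. Between 15.5 and 13.5 dpc Ago1 differed by 0.31 ± 0.21, Ago3 by -0.01 ± 0.23 and Ago4 by 0.10 ± 0.24, with adjusted p from 0.450 to 0.986, and the differences from Ago2 were not tested. In neonatal against embryonic brain they differed by -0.46 ± 0.15, -0.42 ± 0.17 and -0.33 ± 0.17, with adjusted p from 0.0573 to 0.178. Smarca5, the ATPase of the chromatin accessibility complex, also named after its values were seen, differed by -0.27 ± 0.34 in neonatal against embryonic brain (adjusted p = 0.554).

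**Figure D5:**
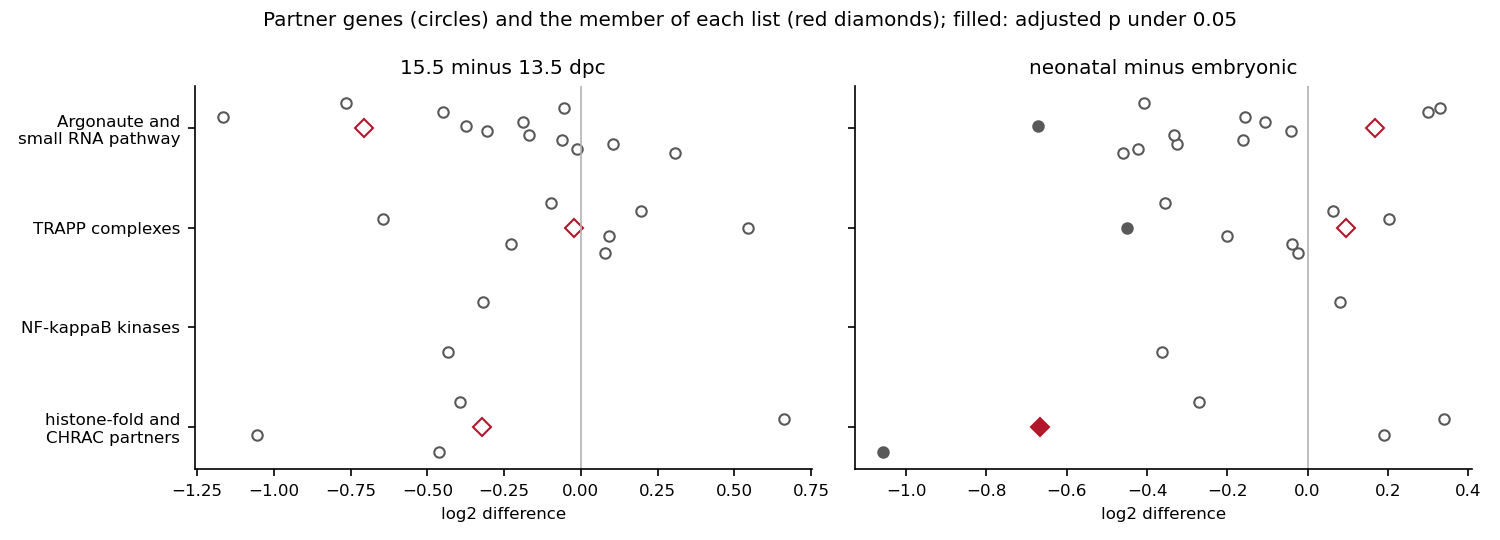
Differences of the 25 tested partner genes (circles), grouped by list, beside Ago2 A, Trappc9 A and Chrac1 (red diamonds), in 15.5 against 13.5 dpc and in neonatal against embryonic brain, on the log2(signal + 58.5) scale; filled points passed the test. Among partners the filled points are Baz1a (-1.06), Hsp90aa1 (-0.67) and Trappc4 (-0.45), all in neonatal against embryonic brain.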

How the data were processed

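RNA of 8 brain samples was hybridised to 1 array each, as biotinylated cRNA per the labels' protocols. The authors' deposited values are linear signal intensities from MAS5, per the submitters' processing notes, and its version was not stated there. The trimmed mean (percentiles 2 to 98) was 499.9 on each array, and no further scaling was applied. Arrays have no read depth, and precision is limited by how few there are.

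Control probe sets (64) were set aside. Of the other 22511, 14661 had 1 gene symbol, 245 several and 7605 none, and symbols were brought up to date with RefSeq (GRCm38.p6). The files name no build, so no coordinates are printed. Signals were analysed as log2(signal + 58.5), a pseudocount equal to the median 20th percentile of the arrays, which understates changes of dim probe sets. Models in limma 3.58.1 (R 4.3.3) had a term per context and 1 for the duplication (3 residual degrees of freedom), or separate neonatal and embryonic duplication effects (2). Adjusted p is by Benjamini-Hochberg over all 13221 tested probe sets, and a difference was called where it was below 0.05. The error given with a log2 difference is limma's moderated standard error. The code was tested on simulated data. The p-values reflect only how these arrays vary, which may be technical. An "at least" fold sets the bright arrays against the dim signal or the array median, whichever was higher.

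The genes named were the 3 genes, the 8 nearest tested genes on each side, called partners (up to 4 a list), the 3 named genes most correlated with each gene's brightest probe set, and Snhg14 and Peg3 of chromosome 7 as a check of the labels (Ndn, Magel2 and Snrpn had 0 annotated probe sets). Marker genes come from fixed lists, and Ago1, Ago3, Ago4 and Smarca5 were added after their values were seen. Neighbours, partners and correlations use the brightest tested probe set of a gene. Members, lists and tests were chosen with earlier results of these data known. Alternatives covered the scaling, the pseudocount, the filter, the variance trend and the arrays used.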

Additional observations from a re-analysis of the deposited data

Results flagged for a closer look

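Trappc9 B had duplication differences of opposite sign in both neonatal and both embryonic pairs, as did 15.3% of all tested probe sets. It was lower in maternal-15 in both neonatal pairs and higher in both embryonic pairs, a change of -2.55 on the log2(signal + 58.5) scale whose test of the difference gave an adjusted p of 0.499. It exceeded the array median on 3 of 8 arrays, all among those that raise this change. Leaving out 1 context pair at a time, the change ran between -3.63 and -1.47, with 0 of 4 settings called.

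The Trappc9 C signal of the paternal-15 brain at 15.5 dpc was 38.7 and stood apart from the other 3 paternal-15 arrays, at 16.1 to 17.3. On the log2(signal + 58.5) scale the gap took 0.938 of the range, more than Dixon's 95% critical value allows for 4 samples. All of these signals were below the array median, and chance alone sets about 1 in 20 such groups apart.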

How the results depend on the processing

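For the 6 tested probe sets 457 alternatives were run over the 5 comparisons: 400 kept direction and side of the threshold, 20 lost a call, 5 gained one and 32 turned the direction, and the cause was not tested. The duplication effect and its neonatal minus embryonic change had 0 called members under every alternative run, and so did cortex against cerebellum. All 4 context pairs entered as blocks, since the labels number no replicates. Each of the next counts is of 6 probe sets. Between 15.5 and 13.5 dpc, called members numbered 2 with a pseudocount of 200 or the strict filter, 3 with an intensity trend, and 0 with no filter, on 4 embryonic arrays only, or without any single array. In neonatal against embryonic brain they numbered 0 with median centring, a floor of 1 or no filter, and ran from 0 to 2 without single arrays. Of all tested probe sets, calls ran from 0 to 4 by duplication, 0 to 87 for cortex against cerebellum, 0 to 1411 for 15.5 against 13.5 dpc and 1827 to 4529 for neonatal against embryonic brain.

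Directions that turned were of uncalled differences. For the duplication, Trappc9 B was -1.05 in neonatal pairs only, and in embryonic pairs only, a choice made after seeing the data, Ago2 A was -0.14 and Chrac1 0.034. The neonatal minus embryonic change of Trappc9 A was -0.013 with quantile normalization. Between 15.5 and 13.5 dpc Trappc9 A was 0.0026 with median centring and Trappc9 B -0.11 with a pseudocount of 200. In neonatal against embryonic brain quantile normalization gave -0.033 for Ago2 A, -0.046 for Ago2 B and -0.067 for Trappc9 A.

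Leaving out 1 context pair at a time, the duplication effect ran from -0.049 to 0.20 for Ago2 A. For Ago2 C it ran from -0.0039 to 0.20 and for Trappc9 B from -0.56 to 0.77. The neonatal minus embryonic change of this effect ran from -0.24 to 0.36 for Ago2 C and -0.19 to 0.33 for Trappc9 A. Leaving out 1 array at a time, cortex against cerebellum ran from -0.067 to 0.33 for Trappc9 A and -0.95 to 1.21 for Trappc9 B. Between 15.5 and 13.5 dpc the ranges were -0.099 to 0.052 for Trappc9 A, -1.55 to 1.59 for Trappc9 B and -0.74 to 0.094 for Chrac1. In neonatal against embryonic brain they were -0.079 to 0.14 for Ago2 C, -0.0027 to 0.19 for Trappc9 A and -1.30 to 0.27 for Trappc9 B. With 1 array per duplication and context, the spread between animals was not measured. Whether signals below the array median, as in most of Trappc9 B, exceeded background was not tested.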
